A study of Arabidopsis thaliana with 13 samples.

Results

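The transcripts described here are those of 9 regulators of the ground tissue and the stem cell niche of the Arabidopsis root: SHR (AT4G37650), SCR (AT3G54220), SCL23 (AT5G41920), SCL3 (AT1G50420), MGP (AT1G03840), NUC (AT5G44160), JKD (AT5G03150), BIB (AT3G45260) and RBR (AT3G12280). They were chosen by name and gene identifier, with earlier results of these data known, and are 9 of the 33560 genes in the deposited table. RNA came from Col-0 seedlings whose roots were protoplasted 5 days after germination, and cells were isolated by the fluorescence of a reporter. The QC-marker cells carried WOX5::GFP, driven by the promoter of WOX5, a homeobox gene of the quiescent centre (QC), and the CEI-marker cells carried CYCD6::GUS-GFP, driven by the promoter of the D-type cyclin gene CYCD6;1. The 4 groups were wox5-1 QC-marker cells (n = 4), wild-type QC-marker cells (n = 3), wox5-1 CEI-marker cells (n = 3) and wild-type CEI-marker cells (n = 3), and wox5-1 is a mutant allele of WOX5. Per the labels, libraries of a group are biological replicates, without word of how many seedlings went into each.

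The ground tissue of the root consists of endodermis and cortex, and both descend from the cortex/endodermis initial (CEI) through an asymmetric division of its daughter. SHR is transcribed in the stele, and its protein moves outward into the neighbouring layer, where with SCR it activates SCR itself, the genes of zinc finger proteins such as MGP and NUC, and CYCD6;1. SCR is also required in the QC to maintain the stem cells, and RBR, the plant retinoblastoma protein, binds SCR and holds back the division of the initials.

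The libraries were uneven, and 3 stood apart from the rest of their group in genes at 0, in root cap markers or in green tissue markers. A value of 0 was given for 19783 genes in wild-type QC-marker library 2, and for 5385 to 12971 genes in each of the others. In wild-type CEI-marker library 4 the root cap markers summed to 2371 FPKM (fragments scaled by transcript length and by the mapped fragments of the library), against 10.4 to 254 in the other CEI-marker libraries. In QC-marker cells they summed to 154, 990 and 670 FPKM in wild-type libraries 1, 2 and 3, against 201 to 256 FPKM in wox5-1. The part of this difference in the values of the 9 regulators was not tested. In wox5-1 CEI-marker library 1 the green tissue markers summed to 10066 FPKM, against 4.6 to 34.8 in the other CEI-marker libraries. The step between low FPKM values put the depth of libraries 1 and 3 of the wild-type QC-marker cells at 18.6% and 21.8% of that of wox5-1 QC-marker library 4, which had the highest estimate, against 66.4% or more in the other wox5-1 QC-marker libraries and 51.8% to 85.9% in the CEI-marker libraries. These depths are rough, since for several libraries 2 forms of the estimate differed by a factor near 2 or more, and library 2 of the wild-type QC-marker cells held too few usable genes for a value. WOX5 itself had 0, 0.11, 0.079 and 0.053 FPKM in wox5-1 QC-marker cells, against 255, 262 and 163 FPKM in QC-marker cells of the wild type, so the genotype labels of these libraries matched the targeted gene. In CEI-marker cells WOX5 had 0, 0 and 0.21 FPKM in wox5-1, against 8.82, 27.3 and 0 FPKM in the wild type, the last in library 4. The 6 QC markers listed for checking the sort, WOX5 among them, summed to 189 to 318 FPKM in wox5-1 QC-marker cells, to 622 to 666 in wild-type QC-marker cells, to 40.9 to 75.7 in wox5-1 CEI-marker cells and to 58.1 to 151 in wild-type CEI-marker cells. Without WOX5 the other 5 summed to 189 to 318, 396 to 459, 40.7 to 75.7 and 58.1 to 139 FPKM in these groups in the same order. The endodermis markers summed to 61.7 to 208, 16.9 to 551, 21.4 to 106 and 21.8 to 382 FPKM in these groups. Wild-type QC-marker library 1 was high, with 551 FPKM against 16.9 and 72.2 in the other wild-type QC-marker libraries. Wild-type CEI-marker library 1 was high too, with 382 FPKM against 87.3 and 21.8 in the other wild-type CEI-marker libraries. The numbers of CEI-marker libraries are names only, so the shared number does not link these libraries. Their part in the values of the 9 regulators was not tested. The cortex markers summed to 16.0 to 100, 0 to 13.1, 41.9 to 169 and 29.2 to 52.5 FPKM, all 3 of them at 0 in wild-type QC-marker library 2.

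The 9 transcripts spanned a wide range of levels. By mean FPKM, which is scaled by transcript length, wox5-1 QC-marker cells held most of RBR and SCR, then JKD, SCL3, NUC, MGP, SCL23, SHR and BIB. In wild-type QC-marker cells the order was SCR, JKD, SCL3, RBR, NUC, MGP, SHR, SCL23 and BIB. SHR, SCL23 and BIB were the 3 lowest in each of the 4 groups. MGP took rank 6 in both QC-marker groups, rank 3 in wox5-1 CEI-marker cells and rank 1 in wild-type CEI-marker cells. Across groups, wild-type CEI-marker cells had the highest mean for 6 of the 9 (SHR, SCR, SCL3, MGP, NUC and JKD), wox5-1 CEI-marker cells for SCL23 and BIB, and wox5-1 QC-marker cells for RBR. No share over all genes was taken for this count. By median, SCL3 was instead highest in wild-type QC-marker cells (25.3 FPKM, against 17.5 in wild-type CEI-marker cells). BIB was then highest in wild-type CEI-marker cells (1.13 FPKM, against 0.86 in wox5-1 CEI-marker cells). Groups next to each other in the order by mean overlapped for SCR, SCL23, JKD and RBR throughout. They were separate between wild-type CEI-marker and QC-marker cells for SHR, where 10.0% of all tested genes had groups without overlap. The same held between the QC-marker genotypes for SCL3 (23.6% of all tested genes) and between the wox5-1 populations for MGP (36.2%). For BIB, wild-type CEI-marker and wox5-1 QC-marker cells were separate. BIB passed the filter on low values given below through CEI-marker libraries alone, so that filter favoured this direction. For NUC, wox5-1 CEI-marker cells lay apart from wild-type QC-marker cells above them and from wox5-1 QC-marker cells below. No share over all genes was taken for the BIB pair or for wox5-1 CEI-marker against wild-type QC-marker cells. These separations are not read as a result.

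**Figure D1:**
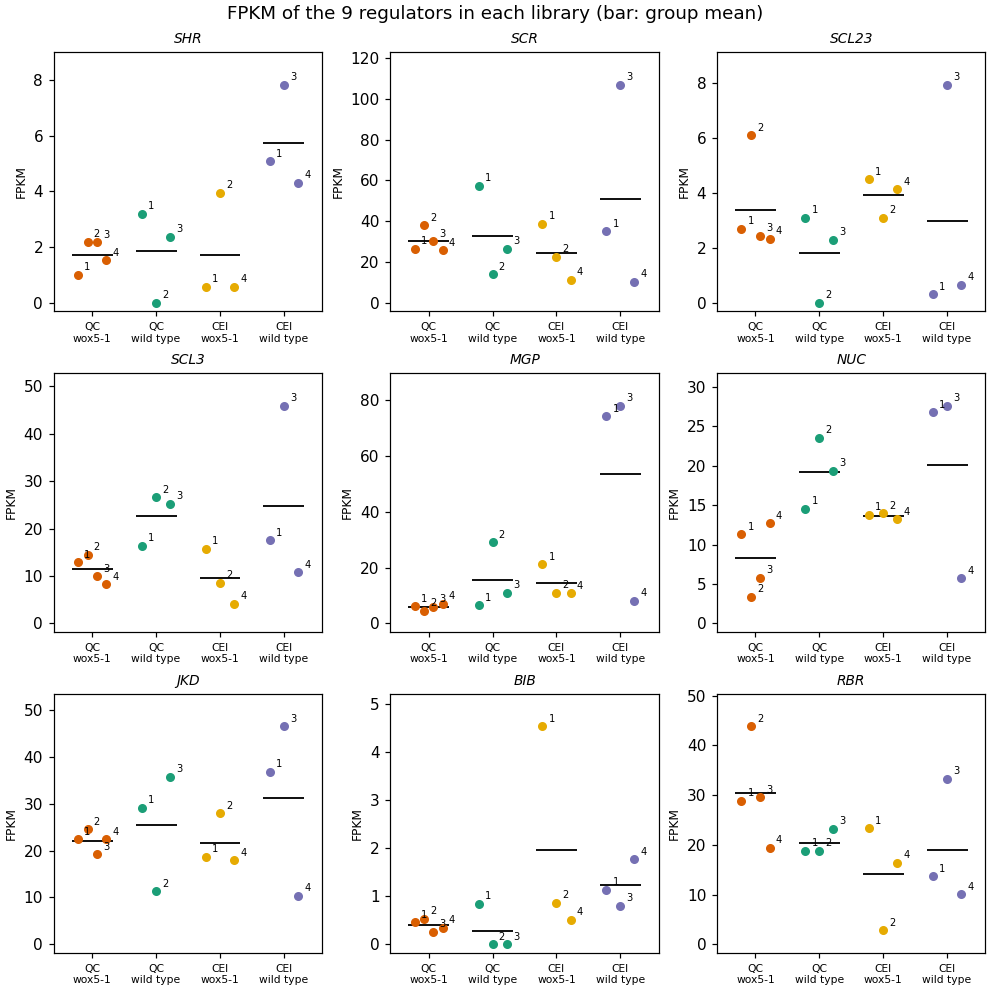
FPKM of each regulator (vertical axis) in every library, by group (horizontal axis); points carry the library number and bars are group means. SHR in wild-type CEI-marker cells lay above every wox5-1 CEI-marker library, and MGP reached 74.2 and 78.1 FPKM in 2 of the 3 wild-type CEI-marker libraries.

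Each of the 9 genes passed the filter on low values (1 FPKM or more in 3 or more libraries), although BIB did so through CEI-marker libraries alone. None of the 9 was called in any of the 5 comparisons by limma at a Benjamini-Hochberg adjusted p under 0.05 in the fit over 13 libraries. Over all 21574 genes tested, 3.43% were called between genotypes in QC-marker cells, 0.0278% between genotypes in CEI-marker cells, 0.357% between the populations in the wild type, 4.31% between the populations in wox5-1 and 0.0232% for the difference of the 2 genotype effects. At an unadjusted limma p under 0.05 the members counted 1, 2, 1, 1 and 0 in these comparisons, and these were NUC in QC-marker cells, SHR and SCL3 in CEI-marker cells, SHR between the populations in the wild type and RBR between them in wox5-1. The share of all tested genes at that unadjusted p is not given here. These counts, and those of the lists below, therefore have no background beside them and are not read as a result. The fit gave each gene 1 spread for all 4 groups, but the groups were unevenly spread. The median SD of log2(FPKM + 1) was 0.26 in wox5-1 QC-marker cells and 0.92 in wild-type QC-marker cells. In CEI-marker cells it was 0.55 in wox5-1 and 0.68 in the wild type. The intervals below show how large a change each comparison leaves possible under that shared spread. They may be too narrow where wild-type QC-marker cells enter and too wide between the populations in wox5-1. In these sorted pools, fewer cells of a type and less RNA per cell cannot be told apart.

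SHR, the mobile regulator at the top of the pathway, was a low transcript in every group. It had 1.00, 2.19, 2.16 and 1.52 FPKM in wox5-1 QC-marker cells, against 3.20, 0 and 2.37 FPKM in QC-marker cells of the wild type. Its CEI-marker values were 0.57, 3.96 and 0.56 FPKM in wox5-1, against 5.09, 7.85 and 4.31 FPKM in the wild type. The QC-marker groups overlapped, whereas each wox5-1 CEI-marker library lay below each wild-type one, with wox5-1 library 2 close to the lowest of these. SHR was the 1 member of 9 whose groups did not overlap there, in a comparison in which 11.0% of all tested genes had such groups. Its change in CEI-marker cells was -1.52 ± 0.63 (SE) on the log2(FPKM + 1) scale, with a 95% interval of -2.87 to -0.17 (limma, adjusted p = 0.594).

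Between the populations in the wild type, SHR was again the 1 member of 9 without overlap, against 10.0% of all tested genes, and lay lower in QC-marker than in CEI-marker cells. That change was -1.44 ± 0.63 (SE), with an interval of -2.80 to -0.095 (limma, adjusted p = 0.386). In wox5-1 the same difference was 0.22 ± 0.59, with an interval of -1.05 to 1.48 (limma, adjusted p = 0.867). In QC-marker cells the genotype change was 0.14 ± 0.59, with an interval of -1.12 to 1.41 (limma, adjusted p = 0.918). Without wild-type QC-marker library 2, where SHR is listed at 0, that value turned to -0.49. The genotype effect in QC-marker cells minus that in CEI-marker cells was 1.66 ± 0.86, with an interval of -0.19 to 3.51 (limma, adjusted p = 0.482), so the 2 effects were not shown to differ. The stele markers, whose tissue transcribes SHR, summed to 93.0 to 154 FPKM in wox5-1 QC-marker cells, to 134 to 178 in wild-type QC-marker cells, to 55.1 to 72.0 in wox5-1 CEI-marker cells and to 62.6 to 138 in wild-type CEI-marker cells. In CEI-marker cells those ranges overlapped between the genotypes, and their part in the SHR values was not tested.

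SCR, the GRAS-family partner of SHR, took rank 1 or 2 by mean FPKM in every group. It had 26.4, 38.0, 30.02 and 25.7 FPKM in wox5-1 QC-marker cells, against 57.3, 13.9 and 26.5 FPKM in QC-marker cells of the wild type. The CEI-marker values were 38.8, 22.4 and 11.2 FPKM in wox5-1, against 35.1, 107 and 10.05 FPKM in the wild type. All groups overlapped, and the 2 wild-type extremes were CEI-marker libraries 3 and 4. The genotype change was 0.091 ± 0.67 (SE) in QC-marker cells, with a 95% interval of -1.33 to 1.52 (limma, adjusted p = 0.956). In CEI-marker cells it was -0.64 ± 0.71, with an interval of -2.16 to 0.88 (limma, adjusted p = 0.827), and it ran from -1.47 without wild-type library 4 to 0.17 without wild-type library 3.

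SCL23, a close relative of SCR, was low throughout. It had 2.69, 6.08, 2.42 and 2.33 FPKM in wox5-1 QC-marker cells, against 3.09, 0 and 2.27 FPKM in QC-marker cells of the wild type. CEI-marker cells had 4.49, 3.09 and 4.12 FPKM in wox5-1, against 0.30, 7.93 and 0.65 FPKM in the wild type. The wox5-1 CEI-marker libraries thus lay between a wild-type library that was high and a pair that was low. The genotype change was 0.81 ± 0.69 (SE) in QC-marker cells and 0.86 ± 0.74 in CEI-marker cells, with intervals of -0.67 to 2.29 and -0.72 to 2.45 (limma, adjusted p = 0.537 and 0.765).

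SCL3, a GRAS-family gene activated by SHR and SCR that promotes gibberellin responses in the endodermis, had a lower group mean in wox5-1 in both populations but did not pass the test in either. It had 12.9, 14.5, 9.99 and 8.29 FPKM in wox5-1 QC-marker cells, against 16.4, 26.6 and 25.3 FPKM in QC-marker cells of the wild type. In the CEI-marker population, SCL3 had 15.7, 8.57 and 4.17 FPKM in wox5-1, against 17.5, 46.0 and 10.8 FPKM in the wild type. The QC-marker groups did not overlap, while in CEI-marker cells wox5-1 library 1 lay above wild-type library 4. The genotype change was -0.93 ± 0.52 (SE) in QC-marker cells, with an interval of -2.05 to 0.18 (limma, adjusted p = 0.336), and -1.21 ± 0.56 in CEI-marker cells, with an interval of -2.40 to -0.014 (limma, adjusted p = 0.619).

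MGP, a zinc finger gene of the INDETERMINATE DOMAIN (IDD) family and a direct target of SHR and SCR, had group means from 5.93 FPKM in wox5-1 QC-marker cells to 53.5 FPKM in wild-type CEI-marker cells. It had 6.15, 4.44, 6.05 and 7.06 FPKM in wox5-1 QC-marker cells, against 6.51, 29.0 and 11.0 FPKM in QC-marker cells of the wild type. CEI-marker libraries held 21.2, 11.0 and 10.8 FPKM in wox5-1, against 74.2, 78.1 and 8.13 FPKM in the wild type. Wild-type CEI-marker libraries 1 and 3 thus stood far above all other libraries, and library 4, in which the root cap marker CEL5 alone had 1955 FPKM, lay below every wox5-1 CEI-marker library. The part of those root cap transcripts in the MGP values was not tested. The genotype change was -1.02 ± 0.69 (SE) in QC-marker cells, with an interval of -2.51 to 0.46 (limma, adjusted p = 0.427), and -1.37 ± 0.74 in CEI-marker cells, with an interval of -2.95 to 0.22 (limma, adjusted p = 0.640). Without wild-type library 4 the value in CEI-marker cells was -2.39, and without library 3 it was -0.84, neither of them called. Between the populations the change was -1.44 ± 0.74 in the wild type, with an interval of -3.03 to 0.14 (limma, adjusted p = 0.446), and -1.10 ± 0.69 in wox5-1, with an interval of -2.58 to 0.39 (limma, adjusted p = 0.388). In wox5-1 the 2 populations did not overlap, MGP being lower in QC-marker cells.

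NUC is another IDD gene activated by SHR and SCR. It had 11.3, 3.38, 5.77 and 12.7 FPKM in wox5-1 QC-marker cells, against 14.5, 23.6 and 19.4 FPKM in QC-marker cells of the wild type. The NUC values in CEI-marker cells were 13.8, 13.98 and 13.2 FPKM in wox5-1, against 26.8, 27.7 and 5.71 FPKM in the wild type. The QC-marker genotypes did not overlap, and in wox5-1 neither did the 2 populations, NUC being lower in QC-marker cells. The change between genotypes in QC-marker cells was -1.24 ± 0.56 (SE), with an interval of -2.43 to -0.045 (limma, adjusted p = 0.238). In CEI-marker cells it was -0.25 ± 0.60, with an interval of -1.53 to 1.02 (limma, adjusted p = 0.936), and the wild-type libraries spanned the wox5-1 values on both sides.

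SCL3 and NUC were thus the 2 of 9 members whose genotypes did not overlap in QC-marker cells, where 23.6% of all tested genes had such groups. MGP and NUC were the 2 of 9 between the populations in wox5-1, where the share over all tested genes was 36.2%. These counts of members were near the background share or below it.

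JKD and BIB encode IDD proteins that bind SHR and SCR and limit the movement of SHR. JKD had 22.4, 24.6, 19.2 and 22.4 FPKM in wox5-1 QC-marker cells, against 29.1, 11.3 and 35.8 FPKM in QC-marker cells of the wild type. JKD had 18.7, 28.0 and 18.0 FPKM in wox5-1 CEI-marker cells, against 36.8, 46.4 and 10.3 FPKM in wild-type CEI-marker cells. All its groups overlapped, with the wild-type values spread more widely than the wox5-1 values. The genotype change of JKD was -0.051 ± 0.50 (SE) in QC-marker cells and -0.30 ± 0.54 in CEI-marker cells, with intervals of -1.13 to 1.03 and -1.45 to 0.85 (limma, adjusted p = 0.968 and 0.907). JKD thus had the narrowest interval of the 9 in QC-marker cells after BIB.

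BIB was near the lower limit of the table. It had 0.46, 0.53, 0.26 and 0.35 FPKM in wox5-1 QC-marker cells, against 0.84, 0 and 0 FPKM in QC-marker cells of the wild type. In CEI-marker cells it had 4.53, 0.86 and 0.51 FPKM in wox5-1, against 1.13, 0.80 and 1.77 FPKM in the wild type. The single high value came from wox5-1 CEI-marker library 1, the one with the high green tissue sum, and with values this low no direction was read from the change of 0.18 ± 0.48 (SE; limma, adjusted p = 0.943) in CEI-marker cells.

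RBR, which binds both SCR and the E2F factors that drive entry into DNA replication, had its highest mean in wox5-1 QC-marker cells. It had 28.8, 43.8, 29.5 and 19.4 FPKM there, against 18.9, 18.9 and 23.2 FPKM in QC-marker cells of the wild type. CEI-marker cells had 23.4, 2.82 and 16.4 FPKM in wox5-1, against 13.7, 33.3 and 10.1 FPKM in the wild type. The groups overlapped in every comparison. In wox5-1 the QC-marker cells had a change of 1.36 ± 0.59 (SE) over the CEI-marker cells, with an interval of 0.11 to 2.62 (limma, adjusted p = 0.200). Without wox5-1 CEI-marker library 2, whose value was low, the change was 0.55. The genotype change was 0.51 ± 0.59 in QC-marker cells and -0.60 ± 0.63 in CEI-marker cells, with intervals of -0.74 to 1.76 and -1.94 to 0.74 (limma, adjusted p = 0.651 and 0.812). RBR is overlapped by the annotated gene PRMT3 (AT3G12270) in the RefSeq table. The strand setting of the counting is not known from the labels, so some of its fragments may belong to that gene.

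**Figure D2:**
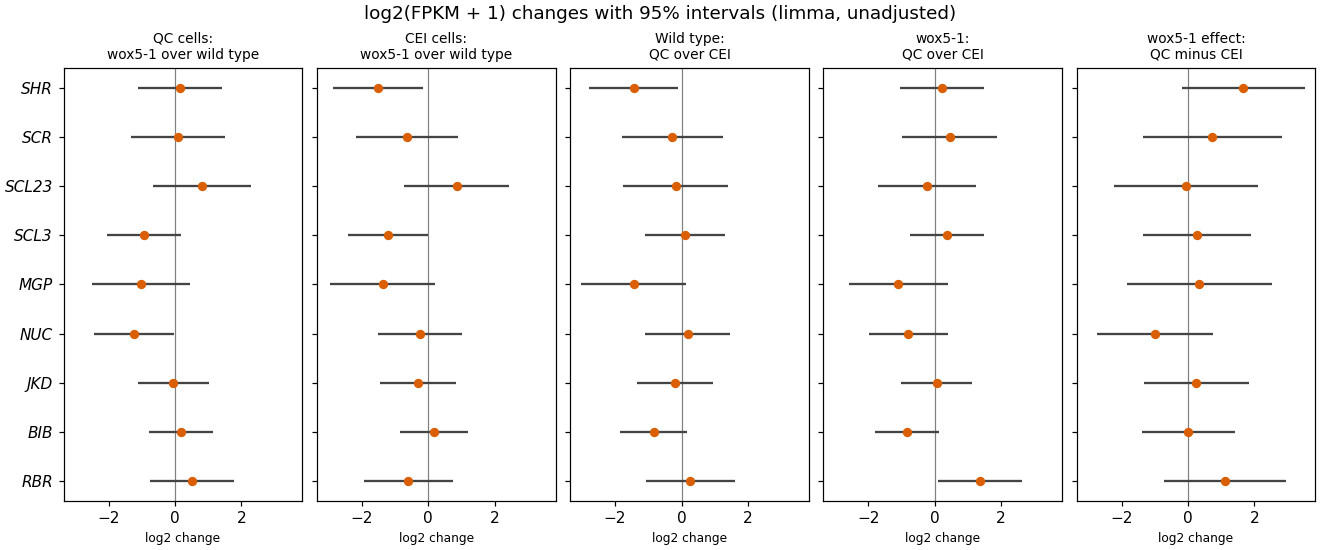
Changes of each regulator on the log2(FPKM + 1) scale (horizontal axis; points, with bars for the unadjusted 95% intervals from limma) in the 5 comparisons, with the group named first on top of each change. The intervals of NUC in QC-marker cells, of SHR and SCL3 in CEI-marker cells, of SHR between populations in the wild type and of RBR between them in wox5-1 excluded 0 before adjustment, and none of the 9 passed after it.

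The effect of wox5-1 in QC-marker cells minus that in CEI-marker cells had 0 of 9 members called, and 0 at an unadjusted p under 0.05. Its intervals were wide, from -2.73 to 0.76 for NUC and from -1.83 to 2.52 for MGP. The 2 effects were therefore not shown to differ for any member, nor to be alike.

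Alternatives to the main fit changed the call in 8 of 951 member values (limma adjusted p as above). With the libraries of the compared groups alone in the fit, MGP was called lower in QC-marker than in CEI-marker cells of wox5-1 (-1.10 ± 0.31, SE; limma adjusted p = 0.0300), in a fit that called 26.8% of its genes. With weights for each library, RBR was called higher there (1.24 ± 0.42; limma adjusted p = 0.0349), in a fit that called 34.8% of its genes. The 3 libraries that stand apart were also left out together, a choice made after seeing the data. That fit tested 8 members, since BIB did not pass its filter. In CEI-marker cells it called 3 of the 8, SCR, SCL3 and MGP, lower in wox5-1 than in the wild type (-1.88 ± 0.54, -2.07 ± 0.49 and -2.69 ± 0.33; limma adjusted p = 0.0327, 0.0158 and 0.00121). It also called MGP lower in QC-marker than in CEI-marker cells of the wild type (-3.02 ± 0.33; limma adjusted p = 0.00210), RBR higher between those populations in wox5-1 (1.89 ± 0.57; limma adjusted p = 0.0300) and a difference of the 2 effects for MGP (2.22 ± 0.43; limma adjusted p = 0.0141). With 2 libraries left in each of 3 groups, this fit called 8.86% of its 20884 genes between genotypes in QC-marker cells, 21.9% between genotypes in CEI-marker cells, 3.35% between populations in the wild type, 31.8% between them in wox5-1 and 14.3% for the difference of effects, far more than the main fit in each comparison. Over all alternatives of the same values, the limma adjusted p ran from 0.0327 to 1 for SCR, from 0.0158 to 1 for SCL3 and from 0.00121 to 1 for MGP between genotypes in CEI-marker cells. For MGP it ran from 0.00210 to 0.913 between populations in the wild type, from 0.0300 to 0.605 between them in wox5-1 and from 0.0141 to 0.971 for the difference of effects, and for RBR from 0.0300 to 0.676 between populations in wox5-1. The calls of 3 members in CEI-marker cells are to be read against that share, and no fit that left out a single library called any member.

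Ratios within a library do not depend on its scaling. The ratio of MGP to JKD, chosen after the values were seen, is given as a description. It was 0.27, 0.18, 0.32 and 0.32 in wox5-1 QC-marker cells, against 0.22, 2.57 and 0.31 in wild-type QC-marker cells. In CEI-marker cells it was 1.13, 0.39 and 0.60 in wox5-1, against 2.02, 1.68 and 0.79 in the wild type. Each CEI-marker library had a higher ratio than every QC-marker library apart from wild-type QC-marker library 2. That library had the most genes at 0 and the highest root cap sum of the QC-marker libraries. The ratio of NUC to JKD lay between 0.50 and 0.74 in 10 of the 13 libraries.

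**Figure D3:**
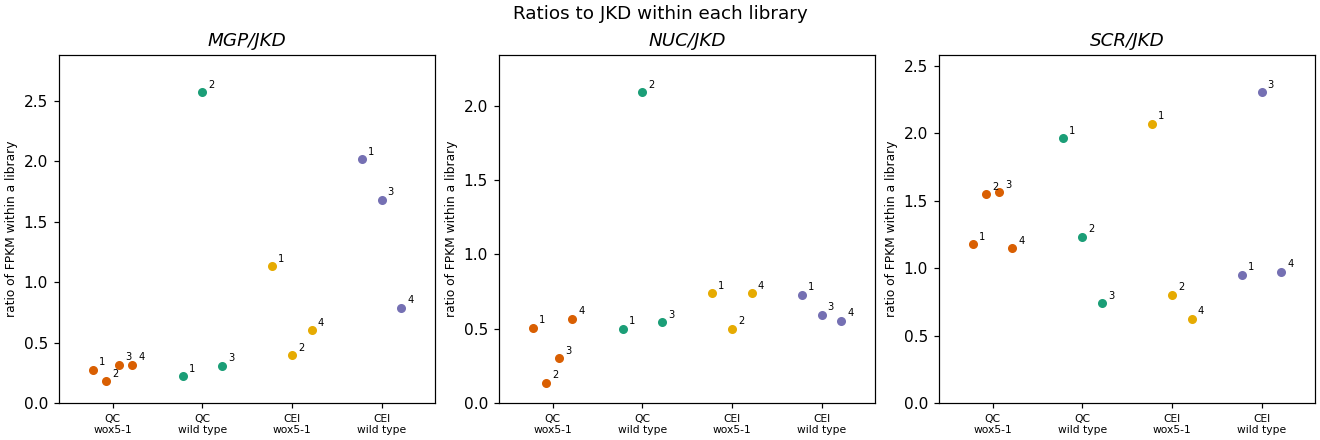
FPKM of MGP, NUC and SCR over that of JKD within each library (vertical axis), by group (horizontal axis), with library numbers at the points. For MGP the CEI-marker libraries run from 0.39 to 2.02, while the QC-marker libraries lie at 0.32 or lower except for wild-type library 2 at 2.57.

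Across all 13 libraries, the transcripts most like SHR in their centred log2(FPKM + 1) were CYCB2;1, BUB3.2 and TCP14, whose root-mean-square differences from it were 0.46, 0.51 and 0.53. CYCB2;1 encodes a B-type cyclin, BUB3.2 a protein of the mitotic checkpoint family and TCP14 a TCP transcription factor. For SCR they were RUG3, MAA3 and PRIN2, with 0.35, 0.35 and 0.40. The spread of SHR and of SCR about their own means was 0.86 in each case, and 8669 genes with a symbol were candidates. The libraries of each population share their sort, so the likeness is a description.

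Among the lists around the members, the GRAS family had 28 of 31 genes tested. RGL3, a DELLA gene that restrains gibberellin responses, was the 1 gene called between genotypes in QC-marker cells. The share called over all tested genes was 3.43% there, so this count is near the background. It had 12.3, 10.7, 11.8 and 16.4 FPKM in wox5-1, against 1.46, 0.11 and 0.084 FPKM in the wild type, without overlap, a change of 3.25 ± 0.50 (SE; limma adjusted p = 0.00496). LAS, a gene of axillary meristem formation, was the 1 gene called between the populations in both genotypes, higher in QC-marker cells by 3.50 ± 0.53 in the wild type and by 2.60 ± 0.49 in wox5-1 (limma adjusted p = 0.0122 and 0.0116). It had 5.09 to 8.13 FPKM in wox5-1 QC-marker cells and 9.38 to 19.7 in wild-type QC-marker cells, against at most 1.08 in any CEI-marker library. Without its QC-marker libraries LAS would not have passed the filter on low values, so that filter favoured this direction. Of all tested genes, 0.357% were called between the populations in the wild type and 4.31% in wox5-1. Between genotypes in CEI-marker cells 0 of the 28 were called by limma, 2 of them (SHR and SCL3) at an unadjusted p under 0.05, and for the difference of effects 0 were called, 1 of them at an unadjusted p under 0.05.

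The IDD family had 13 of 16 genes tested, and 2 were called between the populations in wox5-1, where 4.31% of all tested genes were called. IDD1 was higher in QC-marker cells, with 40.2 to 99.6 FPKM, against 15.7 to 20.0 FPKM in CEI-marker cells (1.75 ± 0.44, SE; limma adjusted p = 0.0380). IDD11 was lower in QC-marker cells, with 0.37 to 0.90 FPKM, against 2.36 to 7.01 FPKM in CEI-marker cells (-1.88 ± 0.44; limma adjusted p = 0.0279). IDD11 passed the filter on low values through CEI-marker libraries alone, so that filter favoured a call in this direction. In the other 4 comparisons limma called 0 of the 13, with 2, 1, 5 and 1 of them at an unadjusted p under 0.05 between genotypes in QC-marker cells and in CEI-marker cells, between populations in the wild type and for the difference of effects.

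Of 13 genes listed as direct targets of SHR and SCR, 12 were tested, and 4 of the 13 are members. BR6OX2, an oxidase of brassinosteroid synthesis, had 2.24, 2.61, 1.94 and 2.60 FPKM in wox5-1 QC-marker cells, against 12.1, 44.6 and 9.93 FPKM in QC-marker cells of the wild type. It fell in wox5-1 without overlap, a change of -2.49 ± 0.60 (SE; limma adjusted p = 0.0398), and in wox5-1 it was lower in QC-marker than in CEI-marker cells, with a change of -2.40 ± 0.60 (limma adjusted p = 0.0383). BR6OX2 was the 1 gene of the 12 called in each of these comparisons, where 3.43% and 4.31% of all tested genes were called. In CEI-marker cells 11 of the 12 had negative values and 0 were called by limma, 3 of them at an unadjusted p under 0.05. The median of the list was -1.08 there, against 0.080 over all tested genes, and in QC-marker cells it was -0.18, against 0.32. The share of all tested genes with negative values is not given here, and the 12 genes were measured in the same libraries. No change of the list as a whole was tested or is read from these values. Between populations in the wild type and for the difference of effects limma called 0 of the 12, with 4 and 3 at an unadjusted p under 0.05. TRI, a gene of the tropinone reductase family, had 3.53, 3.89 and 6.12 FPKM in wox5-1 CEI-marker cells, against 29.9, 53.3 and 2.64 FPKM in wild-type CEI-marker cells, so that wild-type library 4 was low here as it was for MGP. CYCD6;1, whose promoter drives the CEI reporter, had 4.33, 5.47 and 0.75 FPKM in wox5-1 CEI-marker cells, against 1.90, 22.7 and 7.55 FPKM in wild-type CEI-marker cells. In QC-marker cells its mean was higher in wox5-1, with 4.56 to 5.75 FPKM, against 0 to 2.07 FPKM in the wild type. The genotype change was 1.82 ± 0.71 (SE) there and -1.10 ± 0.76 in CEI-marker cells, neither of them called (limma, adjusted p = 0.171 and 0.711). Of the 8 partners of RBR, which include E2F factors and CYCD6;1, 8 were tested and 0 were called by limma in any comparison, with 1, 0, 1, 0 and 1 at an unadjusted p under 0.05 in the order used above.

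**Figure D4:**
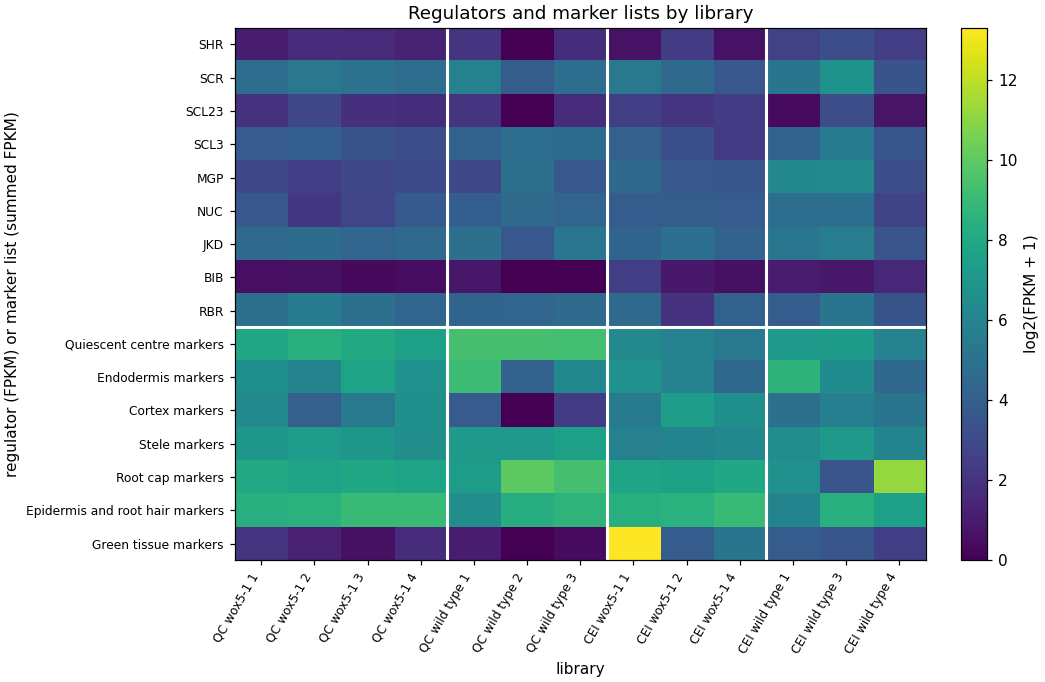
log2(FPKM + 1) of the 9 regulators and of the summed FPKM of 7 marker lists (rows) in each of the 13 libraries (columns), with white lines between groups. Wild-type QC-marker library 2 is dark for SHR, SCL23 and BIB, wild-type CEI-marker library 4 is high in root cap markers and wox5-1 CEI-marker library 1 is high in green tissue markers.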

How the data were processed

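RNA-seq of sorted cells was made, per the labels' protocols, from protoplasted roots with a low-input SMARTer kit and amplified cDNA, and fragments of 1 gene are not independent molecules. The authors deposited 1 table of FPKM for 33560 genes. Per the submitters' processing notes, Cufflinks (version unstated) was used. The aligner, genome build, annotation and strand setting were not given in the sources used here. No coordinate or sequence is therefore printed. Names came from the RefSeq table of TAIR10.1, which held 32826 identifiers and symbols for 7 of the 9 members.

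limma (3.58.1, R 4.3.3) with a mean-variance trend was fitted, 2-sided, to log2(FPKM + 1) of 13 libraries in 4 groups (9 residual degrees of freedom plus 5.28 prior), for 21574 genes that reached 1 FPKM in 3 or more libraries. Benjamini-Hochberg adjustment ran over all of them, and calls are at an adjusted p under 0.05. Changes on this scale understate those of low genes. The fit was tested on simulated data. Relative depth came from the step between FPKM values under 0.5. A first form of that estimate failed on simulated data and was replaced by one that recovered the simulated depths, and the estimate entered no test. CEI-marker columns carry numbers that do not match the titles, so their numbers are names only.

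The members, lists and tests were chosen with earlier results of these data known. The genes named are the 9 members, and from each list the called genes or otherwise up to 3 with the smallest adjusted p, some of which are left out. CYCD6;1 is named in both populations through the list of RBR partners. Likeness takes the 3 tested genes with a symbol nearest to SHR and to SCR. Alternatives were pseudocounts of 0.1 and 5, no filter, a filter at 5 FPKM, 2 scalings, the compared groups alone, library weights, a replicate block, each library left out, and, added after seeing the data, 3 libraries left out together.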

Additional observations from a re-analysis of the deposited data

Results flagged for a closer look

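SCL23 in wox5-1 QC-marker cells had 1 library far from the other 3. Library 2 had 6.08 FPKM, against 2.69, 2.42 and 2.33 FPKM in libraries 1, 3 and 4, and the gap to its neighbour took 0.903 of the whole range. The same library was the highest of its group for 7 of the 9 members (SHR, SCR, SCL23, SCL3, JKD, BIB and RBR) and the lowest for the other 2 (MGP and NUC). It was the 1 of 9 sets of values examined, the members in the only group of 4 libraries, and chance marks about 1 set in 20. The cause was not tested.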

How the results depend on the processing

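In the main fit 0 members were called in each of the 5 comparisons, and the alternatives kept that count except in 6 cases. It became 1 between populations in wox5-1 with the compared libraries alone, 1 there with library weights, and, without the 3 libraries that stand apart, 3 between genotypes in CEI-marker cells and 1 in each of the comparisons between populations and for the difference of effects. The 8 values so called are in the report. BIB did not pass the filter with the compared wox5-1 libraries alone or without the 3 libraries, so those fits tested 8 members. Leaving out 1 library at a time called no member. Direction held in 855 of 943 uncalled values under the alternatives, counted over members and comparisons. It turned in 88, all of them uncalled in the main fit and under the alternative. The cause of these turns was not tested. Part of the values that held could not have turned. A change between groups stays the same under another filter, with the compared groups alone or without a library of another group. For example, the members' median between genotypes in CEI-marker cells was -0.597 in the main fit and without wild-type QC-marker library 1. The count of 855 is therefore no measure of how firm the directions are.

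With a pseudocount of 0.1, the sign turned for SCL23 at 0.25 for the difference of effects. With a pseudocount of 5, the sign turned for SHR at -0.0024 between genotypes in QC-marker cells and SCL23 at 0.026 and BIB at -0.083 for the difference of effects. With median-of-ratios scaling, the sign turned for SCR at -0.063 between genotypes in QC-marker cells, SCL3 at -0.17, NUC at -0.087 and RBR at -0.013 between populations in the wild type, SHR at -0.085, SCR at -0.016, SCL3 at -0.059 and JKD at -0.40 between populations in wox5-1 and BIB at -0.045 for the difference of effects. With quantile normalization, the sign turned for SHR at -0.35, SCR at -0.074 and BIB at -0.31 between genotypes in QC-marker cells, BIB at -0.19 between genotypes in CEI-marker cells, SCL23 at 0.11, SCL3 at -0.21, NUC at -0.065 and RBR at -0.057 between populations in the wild type, JKD at -0.36 between populations in wox5-1 and BIB at -0.12 for the difference of effects. With library weights, the sign turned for SHR at -0.45, SCR at -0.44 and BIB at -0.043 between genotypes in QC-marker cells, BIB at -0.082 between genotypes in CEI-marker cells and SCL23 at 0.26, SCL3 at -0.30 and NUC at -0.45 between populations in the wild type. Without the 3 libraries that stand apart, the sign turned for SHR at -0.49 and SCR at -0.38 between genotypes in QC-marker cells, SCL23 at 0.10, SCL3 at -0.47, NUC at -0.66 and RBR at -0.036 between populations in the wild type and SHR at -0.059 and JKD at -0.024 between populations in wox5-1.

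With 1 library left out in turn, 22 member values changed sign at least once, and their ranges follow. Between genotypes in QC-marker cells, they were -0.49 to 0.54 for SHR, -0.38 to 0.60 for SCR and -0.53 to 0.26 for JKD. Between genotypes in CEI-marker cells, they were -1.47 to 0.17 for SCR, -0.94 to 0.10 for NUC, -0.94 to 0.097 for JKD and -1.12 to 0.21 for RBR. Between populations in the wild type, they were -1.12 to 0.53 for SCR, -0.69 to 0.70 for SCL23, -0.34 to 0.66 for SCL3, -0.51 to 0.54 for NUC, -0.83 to 0.29 for JKD and -0.084 to 0.73 for RBR. Between populations in wox5-1, they were -0.063 to 0.77 for SHR, -0.056 to 0.79 for SCL3 and -0.052 to 0.25 for JKD. For the difference of effects, they were -0.082 to 1.56 for SCR, -0.93 to 0.47 for SCL23, -0.28 to 0.72 for SCL3, -0.19 to 1.37 for MGP, -0.23 to 0.89 for JKD and -0.36 to 0.30 for BIB.

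The scalings moved the median of all genes by over 0.1 in several comparisons. Between populations in wox5-1 it was 0.30 as deposited, -0.11 after median-of-ratios scaling and 0.064 after quantile normalization, and between genotypes in QC-marker cells it was 0.32, 0.19 and -0.070, so small changes of a member can turn with the scaling. With a replicate block over the QC-marker libraries, 0 members and 227 of 18682 genes were called, against 1009 of 18682 in the fit of the same libraries without the block and 741 of 21574 in the main fit. Same-numbered libraries had correlations of -0.057 to 0.090 between their deviations from the group means. No pairing by number showed in these values, which cannot tell whether such libraries were handled together. With the compared libraries alone, limma called 5298 genes between populations in wox5-1, against 930 in the main fit, and 0 between genotypes in CEI-marker cells, against 6. SHR, SCL23 and BIB did not pass a filter at 5 FPKM and have no value there, and BIB has none in some of the fits without a library. SHR and SCL23 are listed at 0 in wild-type QC-marker library 2 and BIB in libraries 2 and 3, and the part of depth in these values was not tested.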
